A study of Mus musculus with 17 samples.

Results

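The comparison described here set osteoprogenitor cells (OPCs) of mice homozygous for the Cxcr4 1013 allele against OPCs of wild-type mice, across all genes. Its members were chosen by their labels alone, as the 3 libraries labelled OPC and Cxcr41013/1013 (1013/1013) and the 3 labelled OPC and Cxcr4+/+ (WT), which are 6 of the 17 libraries of the series. The study sequenced RNA of OPCs and of the less mature skeletal stromal cells (SSCs), sorted by flow cytometry from mouse bone, to ask which transcripts move with a mutation that causes WHIM syndrome, an inherited immunodeficiency. The 3 OPC libraries labelled Cxcr4+/1013 (+/1013, heterozygous) entered the same statistical fit, where they helped to estimate the spread between libraries, and their values are given beside the others where useful. Each library came from a pool of 3 mice. The mice were littermates, described in the study's methods as females of 8 to 12 weeks unless stated otherwise, and the labels give no treatment and no further allele. The 1013 allele is a germline knock-in, so every cell type of the mouse carried it, including the marrow and blood cells around the sorted population.

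CXCR4 is the receptor for the chemokine CXCL12. After ligand binding, kinases phosphorylate its cytoplasmic tail, arrestins bind there, and signaling stops as the receptor is taken up. The 1013 allele encodes a receptor with a shortened tail that resists this shut-off. OPCs are committed cells of the bone lineage on the way to osteoblasts, which lay down a matrix of type I collagen and mineralize it, and they were gated as non-hematopoietic, CD51-positive and Sca-1-negative cells.

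The 6 libraries held 65052411 to 85313745 counts in genes, and between 18723 and 21027 genes were detected in each. Levels are given as CPM, counts relative to library size (the usual counts-per-million unit) after TMM scaling, and a count of 3 stood for 0.0352 to 0.0461 unscaled CPM. The osteoblast lineage markers Runx2 (45.9 to 59.1 CPM) and Sp7 (141 to 335 CPM) were present in all 6 libraries, and Ly6a, which encodes Sca-1, stayed between 0.481 and 10.3 CPM. Other markers of Sca-1-positive stroma were Cd34, Pi16 and Clec3b. Cd34 was higher, at 279, 82.6 and 30.5 CPM in WT and 136, 50.1 and 45.9 CPM in 1013/1013. Pi16 reached at most 12.2 CPM and Clec3b at most 3.11 CPM. WT replicate 3 and 1013/1013 replicate 2 stood apart from the rest. Ptprc, which encodes the leukocyte antigen CD45 against which the cells were gated, was at 44.6 and 98.2 CPM in them and between 0.543 and 2.08 CPM in the other 4. Their summed level over the 26 leukocyte genes tested was 22890 and 16525 CPM, against 70.1 to 485 CPM in the other 4. The granulocyte gene S100a9 reached 2305 and 1459 CPM there. The T cell marker Cd3e was at 0 in 5 of the 6 libraries and at 0.578 CPM in 1013/1013 replicate 2, and the B cell marker Cd79a was at 0.353 CPM in WT replicate 3 and at 16.8 CPM in 1013/1013 replicate 2. 1013/1013 replicate 2 also carried 2751 CPM over the 12 erythroid genes, against 11.8 to 389 CPM elsewhere. These 2 libraries correlated best with each other (Pearson r = 0.883 across genes, which are not independent replicates). Since 1 of them is WT and 1 is 1013/1013, gene list medians that moved strongly without both are given with and without them. The Y-linked transcripts Ddx3y and Uty were found in 5 of the 6 libraries. Ddx3y was at 33.3, 0 and 6.02 CPM in WT and at 54.8, 9.65 and 28.5 CPM in 1013/1013, while Xist, transcribed from the inactive X, was at 7.004 to 29.2 CPM in all 6. The +/1013 libraries differed in the same way, with Ddx3y at 46.3, 0 and 0.0474 CPM and Xist at 0, 13.0 and 17.0 CPM. Since Y-linked transcripts come from male cells, 5 of the 6 libraries did not match a description as female, and the part of this in the results below was not tested.

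Of 55335 genes in the files, 16207 had enough counts to be tested. Only Stk25 passed the edgeR test between 1013/1013 and WT, for which the Benjamini-Hochberg adjusted p had to be below 0.05 and the fold at or above 1.5. That is 0.00617% of the genes. At an unadjusted p under 0.05, 548 genes (3.38%) were found, of which 302 (1.86%) were higher and 246 (1.52%) lower in 1013/1013 OPCs. The second smallest adjusted p of the edgeR test was 0.712. The 3 values of each group did not overlap in 1231 genes (7.6%). All 1013/1013 libraries were above all WT libraries in 631 (3.89%) and below them in 600 (3.7%). With no difference between the groups, such a separation of 3 against 3 libraries has a probability of 0.1 for a gene. An unadjusted p under 0.05 then has one of 0.05, and both observed shares lay below these. A lack of overlap in a gene below is thus a description and not a test. DESeq2, the tool named in the study's methods, called 67 of 17526 genes (0.382%) at the same thresholds with its Wald test, 35 higher and 32 lower. Of these 67 genes, 64 were in the table tested by edgeR, and 56 of the 64 had an unadjusted edgeR p under 0.05. The median log2 fold change over all genes tested was 0.01, a value that TMM scaling brings near 0, and the median standard error was 0.50. The plot of fold change against level shows where the called genes lie.

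**Figure D1:**
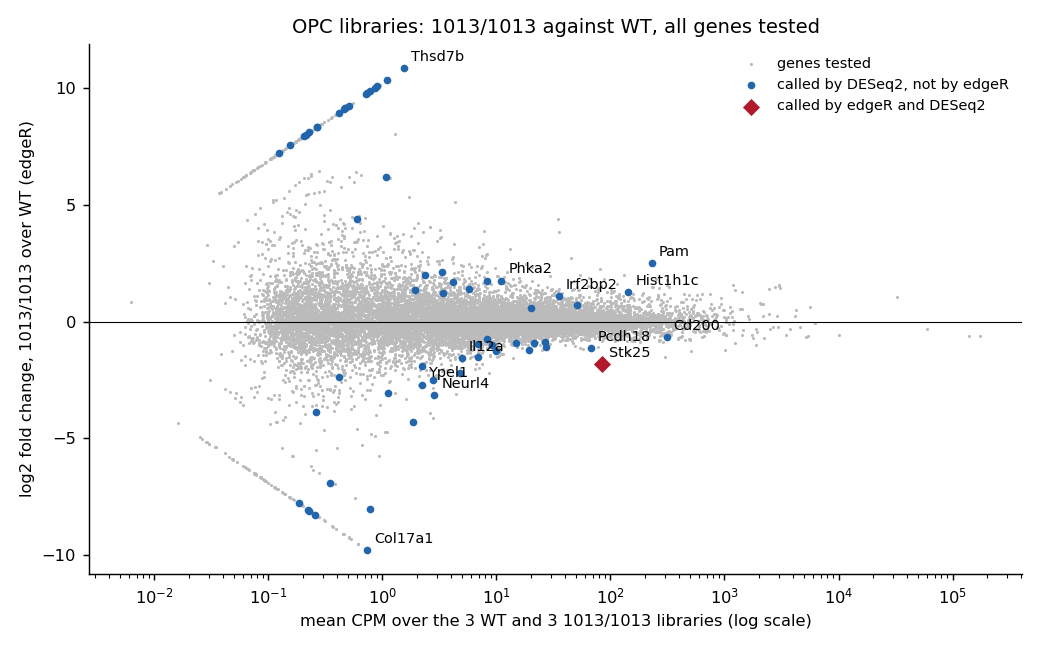
Each point is a gene tested, with its mean CPM over the 6 libraries on a log axis and its edgeR log2 fold change (1013/1013 over WT) on the vertical axis; blue points were called by DESeq2 only and the red diamond, Stk25, by both tools. The slanted lines of points at the left are genes at 0 in every library of 1 group, whose fitted fold changes depend on the prior count and are not measured sizes.

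Stk25 (ENSMUSG00000026277.14) encodes a serine/threonine kinase of the germinal center kinase family that works within the STRIPAK phosphatase complex. The gene lies on the minus strand of chromosome 1 in mm10, from 93619751 to 93658659. Its level was 136, 130 and 126 CPM in the WT libraries and 38.5, 34.7 and 37.1 CPM in the 1013/1013 libraries, with 91.3, 81.3 and 96.8 CPM in the +/1013 libraries. All 3 genotypes were thus apart, and the spread within each was small: 131 ± 5.26 CPM (SD, n = 3) in WT against 36.8 ± 1.92 CPM (SD, n = 3) in 1013/1013. Stk25 fell 3.55-fold in 1013/1013 libraries, or by 1.83 on the log2 scale with an error (SE) of 0.14, and its edgeR p after Benjamini-Hochberg adjustment was 0.0142. The size of this fall stayed between −1.86 and −1.79 in log2 units under every alternative run. The call did not: leaving out any of the 6 libraries took the adjusted edgeR p to between 0.0734 and 0.271, fitting only the WT and 1013/1013 libraries to 0.219, blocking on replicate number to 0.0820 and leaving out both leukocyte-rich libraries to 0.700, whereas DESeq2 called the gene in all 6 of its fits without 1 library. The sequence around a start site of this gene in RefSeq, 250 bases before it and 50 after (the window length was 300 bases), is shown because Stk25 is the gene called. It is at chr1:93635678-93635977 on the minus strand of GRCm38.p6, inside the longer gene model above, with a GC content of 64.0% and 26 CpG dinucleotides. The capitals mark the longest run of letters that occurs more than once in the window, CTGGGACTTGTAGTCT, found by comparing all runs of equal length.
Stk25 start site: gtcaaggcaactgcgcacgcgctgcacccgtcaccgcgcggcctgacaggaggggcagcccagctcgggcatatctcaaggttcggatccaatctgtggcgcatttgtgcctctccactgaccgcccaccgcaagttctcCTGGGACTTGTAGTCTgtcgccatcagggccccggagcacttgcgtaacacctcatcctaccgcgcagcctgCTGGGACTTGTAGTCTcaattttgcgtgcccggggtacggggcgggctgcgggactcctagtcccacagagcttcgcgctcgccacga
This run of 16 bases occurs in 2 copies here, and on either strand in 3 of 32851 start-site windows of the table (0.00913%); it is a description of the letters, and the data do not bear on what binds there.

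The close relatives of Stk25 did not pass the test. Stk24, which encodes the kinase MST3, was at 2.55, 5.50 and 5.62 CPM in WT and 5.65, 6.32 and 5.18 CPM in 1013/1013, and these ranges overlapped. Stk26, which encodes MST4, was at 36.3, 77.6 and 29.3 CPM in WT and 133, 61.0 and 117 CPM in 1013/1013, so that 1013/1013 replicate 2 lay inside the WT range. Cab39, which encodes the scaffold MO25 that activates these kinases, was at 66.2, 65.0 and 82.4 CPM in WT and at 95.8, 88.0 and 119 CPM in 1013/1013, without overlap and without passing the test. Of the 28 genes tested in the list of the STRIPAK complex and its kinases, 22 were higher and 6 lower, with a median log2 fold change of 0.16, against 0.01 for all genes. Without both leukocyte-rich libraries that median was 0.05, with 17 higher.

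A second tier of genes was called by DESeq2 and not by edgeR. Of the 64 DESeq2 calls that edgeR also tested, Stk25 included, 52 did not overlap between WT and 1013/1013 libraries, against 7.6% of all genes. These calls were chosen on the same values, so their separation is no further support. Of the 52 genes, 36 also averaged at least 1 CPM, 15 higher and 21 lower. DESeq2 called 17 of the 64 in each of its 6 fits without 1 library.

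Neurl4, which encodes a protein of the centrosome, was among the lowest relative to WT. Its level was 5.53, 5.20 and 4.56 CPM in WT and 0.451, 0.565 and 0.697 CPM in 1013/1013, a log2 fold change of −3.15 (SE 0.54), with an adjusted p of 4.82e-08 in DESeq2 and 0.945 in edgeR. The +/1013 libraries, at 4.42, 1.46 and 2.56 CPM, lay between the other genotypes. Ypel1 was at 5.55, 2.45 and 3.52 CPM in WT and 0.936, 0.2497 and 0.573 CPM in 1013/1013 (log2 fold change −2.71; DESeq2 adjusted p = 0.000344). Clip4, which encodes a protein with microtubule-binding domains, was at 3.76, 4.36 and 6.17 CPM in WT and 1.44, 0.670 and 0.372 CPM in 1013/1013 (log2 fold change −2.52; DESeq2 adjusted p = 0.00137). The +/1013 libraries overlapped WT for Ypel1, at 4.06 to 5.76 CPM, and for Clip4, at 3.50 to 5.97 CPM. Il12a encodes the p35 chain that interleukin-12 and interleukin-35 share. It was at 7.91, 5.65 and 8.62 CPM in WT and 2.21, 2.83 and 2.46 CPM in 1013/1013, with 7.54, 6.65 and 6.17 CPM in +/1013. The 1013/1013 values were all below the others, a log2 fold change of −1.56 (SE 0.31), with a Benjamini-Hochberg adjusted p of 5.39e-06 in DESeq2 and 1.00 in edgeR. Pcdh18, which encodes a protocadherin, was at 85.8, 81.4 and 108 CPM in WT, 67.9, 73.2 and 74.9 CPM in +/1013 and 34.2, 51.1 and 41.3 CPM in 1013/1013. The 3 genotypes did not overlap, and the log2 fold change of 1013/1013 over WT was −1.12 (SE 0.20), with a DESeq2 adjusted p of 0.000344. Mmaa, which encodes a mitochondrial protein of the vitamin B12 pathway, was at 9.94, 9.09 and 8.45 CPM in WT and 4.97, 4.18 and 5.005 CPM in 1013/1013, again with no overlap (DESeq2 adjusted p = 0.000275).

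Other DESeq2 calls on the lower side were less stable. Igfbp3, which encodes a carrier of insulin-like growth factors, was at 6.10, 14.02 and 3.75 CPM in WT and 1.09, 1.59 and 2.43 CPM in 1013/1013, and was called in 3 of 6 fits without 1 library. Bace2, which encodes a membrane aspartyl protease, was at 19.2, 11.6 and 10.9 CPM against 6.82, 5.82 and 4.82 CPM and was called in 3 of 6. Cd200, which encodes a membrane glycoprotein also used to mark skeletal stem cells, was at 321, 424 and 400 CPM in WT and 211, 236 and 270 CPM in 1013/1013. The groups were apart, with a log2 fold change of −0.68, but DESeq2 called Cd200 in only 1 of 6 such fits (adjusted p = 0.0399 with all libraries). Also called by DESeq2 were Btla, an inhibitory receptor of lymphocytes (log2 fold change −1.21), Sgca, the alpha-sarcoglycan (−1.08), Mettl25 (−1.50), Fancb of the Fanconi anemia core complex (−1.89), Ddias (−4.29) and the pseudogene Gm36298 (−3.08). Hars2, the mitochondrial histidyl-tRNA synthetase, had a log2 fold change of −0.86.

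On the higher side, Irf2bp2 was close to constant within WT and within 1013/1013. This gene encodes a transcriptional corepressor, and it was at 21.7, 23.7 and 21.7 CPM in WT, 21.5, 27.6 and 33.7 CPM in +/1013 and 49.1, 48.5 and 45.9 CPM in 1013/1013. WT and 1013/1013 were far apart relative to their spread, by 1.10 on the log2 scale (SE 0.19), and the adjusted p was 1.46e-05 in DESeq2 and 0.945 in edgeR. Phka2, the liver-type regulatory subunit of phosphorylase kinase, was at 6.14, 6.58 and 2.42 CPM in WT and 15.5, 19.98 and 15.4 CPM in 1013/1013 (log2 fold change 1.75; DESeq2 adjusted p = 0.00276). Cep70 and Ccp110 encode proteins of the centrosome, the second a cap of the centriole that holds back cilium formation. Cep70 was at 1.74, 2.20 and 1.94 CPM in WT and 6.63, 7.86 and 4.71 CPM in 1013/1013 (DESeq2 adjusted p = 0.000275). Ccp110 was at 1.95, 2.27 and 1.94 CPM against 5.07, 4.60 and 4.56 CPM (DESeq2 adjusted p = 2.28e-08). Shc4, which encodes an adaptor of receptor tyrosine kinases, was at 0.835, 1.03 and 0.989 CPM against 3.08, 5.36 and 2.88 CPM (DESeq2 adjusted p = 0.00166). In each of these 5 genes all 1013/1013 libraries were above all WT libraries, and DESeq2 called each in all 6 fits without 1 library. Sypl, which encodes a vesicle membrane protein, was at 35.0, 43.4 and 37.6 CPM against 69.8, 60.5 and 59.4 CPM and was likewise called in all 6. Hist1h1c, a linker histone gene, was at 94.96, 77.5 and 80.2 CPM against 252, 148 and 207 CPM, but was called in 2 of 6. Among the remaining higher calls were Zfp473 (log2 fold change 6.18), Fam83g (2.10), Wars2, the mitochondrial tryptophanyl-tRNA synthetase (1.41), and Marf1 (1.37). The plot of single genes by library shows these levels.

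**Figure D2:**
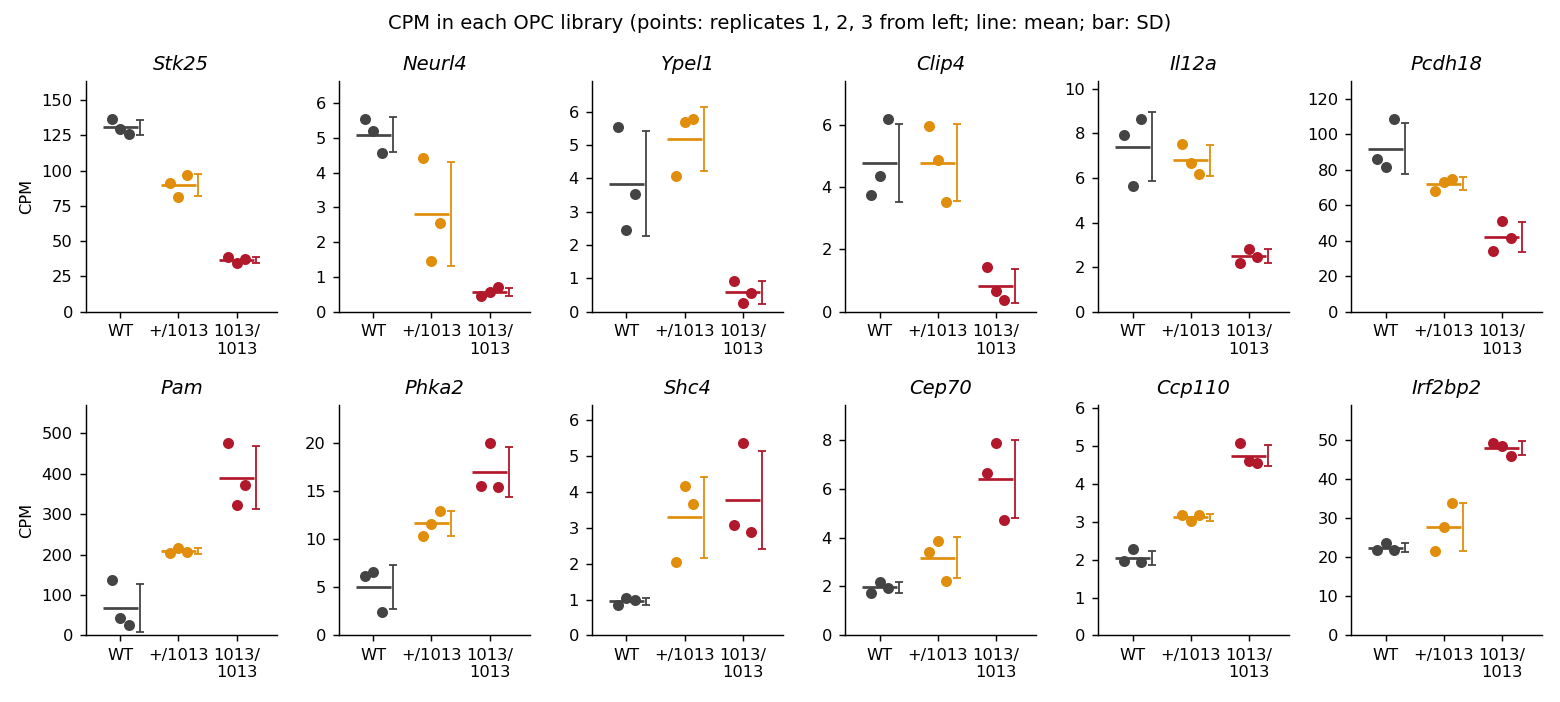
Each panel gives the CPM of 1 gene in the 3 WT, 3 +/1013 and 3 1013/1013 OPC libraries, with the group mean as a line and the SD as a bar; every vertical axis starts at 0. Stk25 stepped from 131 ± 5.26 CPM in WT to 36.8 ± 1.92 CPM in 1013/1013, and in all 12 panels the WT and 1013/1013 points do not overlap.

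Many of the DESeq2 calls were set by a lack of counts in 1 group. In 19 of the 64 genes all WT libraries were at 0, and in 5 all 1013/1013 libraries were at 0. Of those at 0 in WT, 8 had counts in only 1 or 2 of the 1013/1013 libraries. Col17a1, which encodes a collagen of epithelial anchoring junctions, was among the 5, at 2.62, 0.811 and 1.01 CPM in WT, 5.15, 1.40 and 1.76 CPM in +/1013 and 0 in each 1013/1013 library. With 3 counts taken as the limit in each 1013/1013 library, it was at least 36.8-fold lower there. DESeq2 called it in all 6 fits without 1 library (adjusted p = 4.16e-07).

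Chromosome 1, which carries Cxcr4, held the gene called by edgeR and 8 of the 64 genes called by DESeq2. These 8 were 0.794% of its genes tested, against 0.368% on all other chromosomes together. Chromosome 16 alone stood higher, at 1.2%, and chromosome 13 alone at 0.782%. Among the 1007 genes tested on this chromosome, 45 (4.47%) had an unadjusted edgeR p under 0.05, against 3.31% on all other chromosomes together, where chromosome 13 alone stood at 4.38% and chromosome 9 alone at 4.03%. On a per-distance basis, 26 of the 384 genes under 40 Mb from Cxcr4 (6.77%) were at that p, against 19 of 623 farther away (3.05%). These windows were set after the values were seen and were not tested. Since a knock-in allele is inherited with its flanking sequence, the genotype and the alleles of genes near Cxcr4 cannot be told apart in this design.

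Pam, which encodes the enzyme that amidates the end of many peptide hormones, lies 30.6 Mb from Cxcr4. Its level was 137, 43.5 and 24.7 CPM in WT, 203, 217 and 207 CPM in +/1013 and 476, 322 and 373 CPM in 1013/1013. No library of 1 genotype overlapped another, although WT replicate 1 lay far above the other WT libraries. The difference was 2.52 on the log2 scale (SE 0.57), with an adjusted p of 0.00276 in DESeq2 and 1.00 in edgeR. It was 3.52 without WT replicate 1 and 2.23 without both leukocyte-rich libraries. Stk25 lies 35.0 Mb from Cxcr4 on the same side. Wdfy1, which encodes an endosomal adaptor of Toll-like receptors, lies 48.9 Mb away on that side too and was at 6.45, 2.17 and 2.81 CPM in WT, 7.96, 6.55 and 8.44 CPM in +/1013 and 12.2, 9.58 and 16.6 CPM in 1013/1013. The order of genotypes was the same as for Pam, and DESeq2 called Wdfy1 in 2 of 6 fits without 1 library (adjusted p = 0.0369). Thsd7b, which encodes a membrane protein with thrombospondin repeats, lay closest to Cxcr4 of the genes called, 1.16 Mb away. It was at 0 in all WT libraries and at 5.11, 1.14 and 3.05 CPM in 1013/1013, at least 72.6-fold higher with 3 counts as the limit in each WT library. In +/1013 it was at 0, 1.27 and 0 CPM. Ren1, the renin gene, was at 0 in WT and at 0.543, 1.30 and 3.35 CPM in 1013/1013, at least 40.5-fold higher on the same basis. Lax1, Tnr and Aox4 had counts in at most 2 of the 6 libraries.

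**Figure D3:**
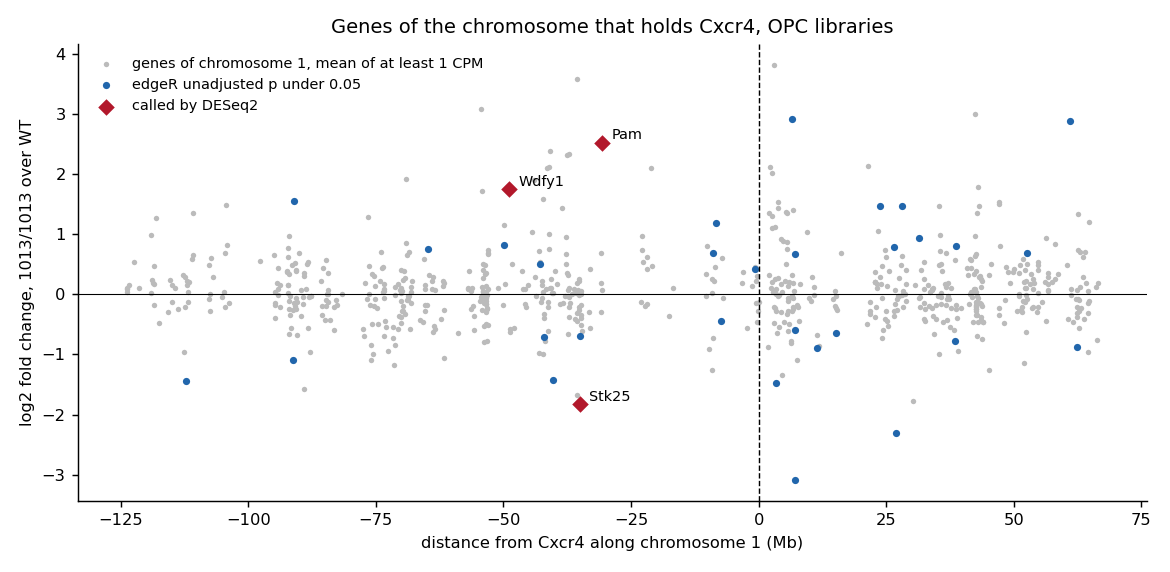
Log2 fold change (1013/1013 over WT) of the chromosome 1 genes that averaged 1 CPM or more and had counts in both groups, against the distance in Mb of the gene's centre from that of Cxcr4 (dashed line at 0). Blue points had an unadjusted edgeR p under 0.05, and the diamonds mark Wdfy1, Stk25 and Pam, called by DESeq2.

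The heterozygous libraries gave a further level against which each gene could be placed. The +/1013 and 1013/1013 libraries are compared with the same WT libraries, so the orders below are descriptions with no test. Levels followed the number of 1013 alleles with no overlap among all 9 OPC libraries in 20 of the 16207 genes (0.123%). Of these, 12 were higher and 8 lower with more 1013 alleles. Among so many genes, some can show this order when none follows the allele. With no difference between the genotypes, the share of all possible library orders that give this pattern is close to the observed 0.123%. The order alone thus does not mark a gene as following the allele. Of the 20 genes, 11 were DESeq2 calls between 1013/1013 and WT. On chromosome 1 lay 5 of them, 0.497% of its genes tested, against 0.0987% on the other chromosomes. The 11 included Stk25, Pam, Wdfy1, Phka2, Pcdh18, Neurl4, Cep70, Ccp110, Mmaa and Hars2. Podxl2, at 22.0, 22.3 and 28.9 CPM in WT and 10.9, 14.9 and 15.6 CPM in 1013/1013, and Selenoo, at 14.8, 13.9 and 15.2 CPM against 25.4, 19.6 and 20.3 CPM, had this order without being called by either tool. Orc2, a subunit of the origin recognition complex on chromosome 1, had it too, with a log2 fold change of 0.41.

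The genes of the bone-forming program gave no call by edgeR or by DESeq2, which called 0.00617% and 0.382% of all genes they tested. At such shares, short lists like those below can hold 0 calls without standing apart from other genes. Among 29 bone matrix genes tested, 18 were lower and 11 higher in 1013/1013 OPCs, with a median log2 fold change of −0.32 against 0.01 for all genes, and 2 (6.90%, against 3.38% of all genes) were lower at an unadjusted edgeR p under 0.05. The median was −0.16 without 1013/1013 replicate 1 and −0.20 without WT replicate 3. The 2 genes were Bglap and Bglap2, neighbouring and near-identical genes for osteocalcin whose reads may have been split between them. Bglap was at 668, 1024 and 2519 CPM in WT and 414, 665 and 722 CPM in 1013/1013. The highest value by far was WT replicate 3, and the log2 fold change of −1.22 became −0.50 without that library. Col1a1 and Col1a2, the chains of type I collagen, took 31.5%, 36.9% and 38.4% of the counts in WT and 16.1%, 33.9% and 26.7% in 1013/1013. The difference of −10.1 percentage points had an exact two-sided permutation p of 0.2, where 0.1 is the smallest that 3 against 3 libraries can give. Col1a2 was below every WT library in all 1013/1013 libraries, at 62141, 140299 and 126621 CPM against 141131, 170064 and 195038 CPM, but by a narrow margin for replicate 2. Col1a1 overlapped (log2 fold change −0.61, SE 0.50), as did Spp1, the osteopontin gene, at 3377, 11868 and 8938 CPM in 1013/1013 against 11582, 9432 and 14940 CPM in WT. Ibsp, which encodes bone sialoprotein, was at 2204, 5125 and 5229 CPM in WT and 1362, 4106 and 4616 CPM in 1013/1013. For Col1a1, Ibsp and Sp7 the lowest library of each of the 3 genotypes was replicate 1, as the plot of bone and cartilage genes shows.

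**Figure D4:**
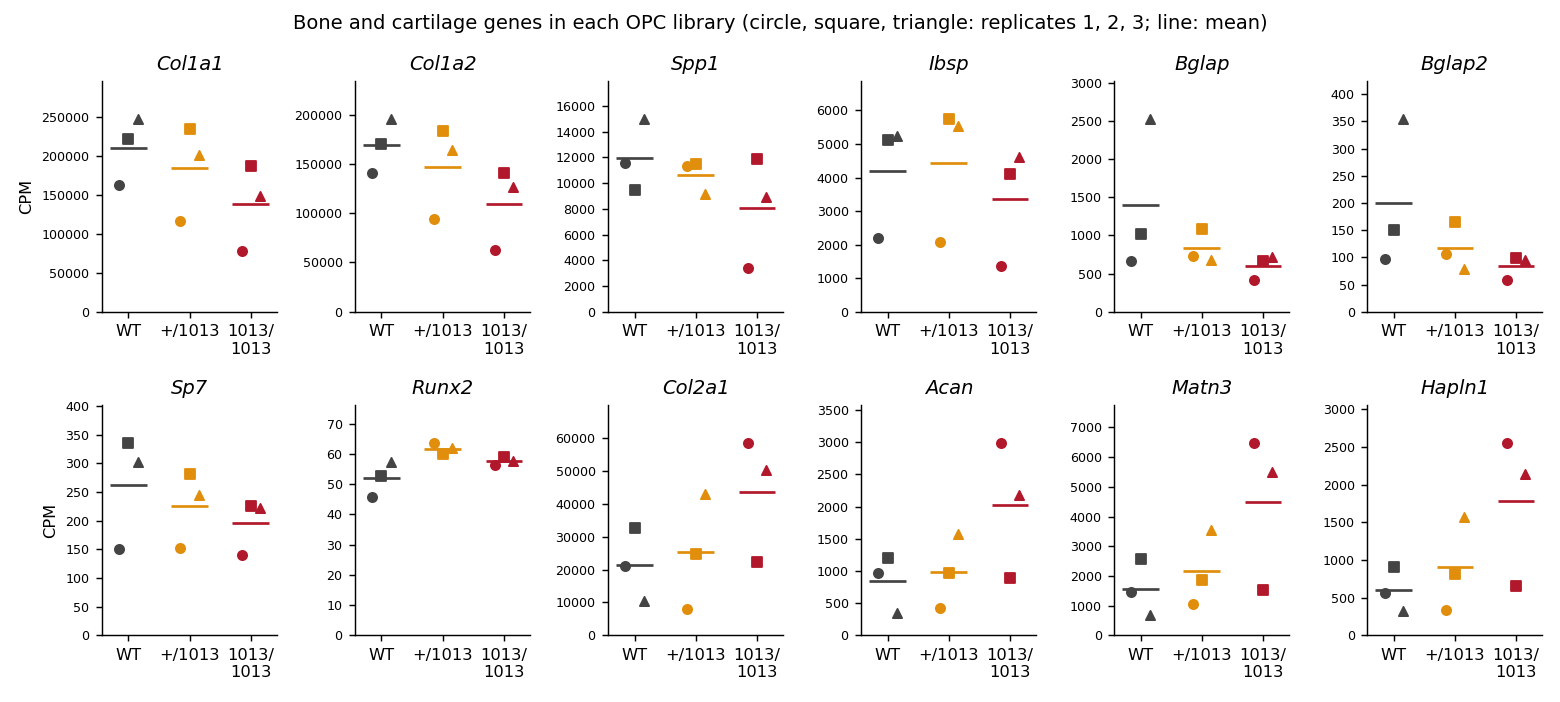
CPM of 12 bone and cartilage genes in each OPC library, by genotype, with the mean of each group as a line; circles, squares and triangles are replicates 1, 2 and 3, and every vertical axis starts at 0. The collagen type I and bone matrix genes of the upper row overlapped between WT and 1013/1013 except Col1a2, and the cartilage genes at the lower right were highest in 1013/1013 replicates 1 and 3, with +/1013 replicate 3 next.

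The transcription factors of the lineage were divided. Of 26 tested, 13 were higher and 13 lower, with a median of −0.01, and −0.14 without both leukocyte-rich libraries. Sp7, which encodes Osterix, was at 150, 335 and 303 CPM in WT and 141, 225 and 222 CPM in 1013/1013, and Runx2 was at 45.9, 52.7 and 57.4 CPM against 56.3, 59.1 and 57.5 CPM. Neither passed the test. Zfp521, which encodes a zinc finger protein that restrains Runx2, was at 20.03, 18.6 and 13.96 CPM in WT and 25.4, 25.3 and 37.0 CPM in 1013/1013, with no overlap. Tcf7, a transcription factor of the Wnt pathway, was at 42.7, 64.7 and 66.9 CPM against 25.7, 39.7 and 41.6 CPM, again without overlap and in the other direction. Dlx5, a homeobox factor of osteoblasts, was at 38.7, 36.6 and 40.4 CPM against 34.04, 25.7 and 29.1 CPM. These last 3 and Foxc1 had an unadjusted edgeR p under 0.05, which is 15.4% of the list against 3.38% of all genes. The 14 mineralization genes tested were evenly split (median log2 fold change −0.02). Within them Slc20a1, a phosphate importer, was at 24.9, 14.9 and 13.5 CPM in WT and 27.8, 28.5 and 32.5 CPM in 1013/1013. Of 14 osteocyte genes, 9 were lower (median −0.10). This median was −0.61 without both leukocyte-rich libraries, with 11 lower, and 0.18 without 1013/1013 replicate 1, with 8 higher. Among these genes Dkk1, the secreted Wnt inhibitor, was at 36.1, 71.9 and 88.5 CPM against 22.2, 44.2 and 30.0 CPM. Of 31 genes of collagen folding and crosslinking 19 were higher (median 0.09, and 0.22 without both leukocyte-rich libraries). So were 18 of 23 genes of the secretory stress response (median 0.16, and 0.31 without both). DESeq2 called 0 genes in either list, against 0.382% of all genes.

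Cartilage genes were the list farthest above the others, apart from the lists for erythroid cells. Of 23 chondrogenic genes tested, 21 were higher in 1013/1013, with a median log2 fold change of 1.03, and only Chad (−0.23) and Prg4 (−0.33) were lower. None was called by either tool, against 0.00617% of all genes for edgeR and 0.382% for DESeq2. At an unadjusted edgeR p under 0.05, 2 were higher, 8.70% of the list against 3.38% of all genes. Those were Epyc, a small proteoglycan of growth cartilage, at 115, 172 and 46.1 CPM in WT and 589, 126 and 466 CPM in 1013/1013, and Hapln1, which encodes the link protein of aggrecan, at 562, 904 and 326 CPM against 2551, 652 and 2136 CPM. In both genes 1013/1013 replicates 1 and 3 were far above WT while replicate 2 lay within its range. The same division held for Acan, the aggrecan gene, at 976, 1195 and 343 CPM in WT and 2983, 891 and 2176 CPM in 1013/1013, and for Col2a1, the collagen of cartilage, at 20945, 32451 and 10540 CPM against 58332, 22126 and 50097 CPM. Sox9, the regulator of the chondrocyte fate, was at 152, 182 and 86.6 CPM against 420, 108 and 316 CPM. Without both leukocyte-rich libraries the list median was 1.13, with 20 of 23 genes higher. It was 0.76 without WT replicate 3, 0.81 without 1013/1013 replicate 1 and 1.38 without 1013/1013 replicate 2. Among the libraries, +/1013 replicate 3 was also high, with Hapln1 at 1574 CPM and Matn3, a cartilage matrilin, at 3551 CPM, above the 677 to 2557 CPM of WT. In bulk libraries a larger share of chondrocytes and more of these transcripts per cell cannot be told apart.

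Genes of cholesterol and fatty acid synthesis showed the same division of libraries. Of 27 tested, 26 were higher in 1013/1013, with a median log2 fold change of 0.65. At an unadjusted edgeR p under 0.05, 4 were higher, 14.8% of the list against 3.38% of all genes. Msmo1, a sterol methyl oxidase, was at 47.2, 69.0 and 40.8 CPM in WT and 132, 59.6 and 112 CPM in 1013/1013, so that replicate 2 fell within WT. Elovl6, a fatty acid elongase, was at 32.3, 19.6 and 7.92 CPM against 60.0, 31.9 and 56.7 CPM. Acly, which makes cytosolic acetyl-CoA, was at 148, 167 and 105 CPM against 227, 177 and 357 CPM, and did not overlap. Of 27 genes of glycolysis and hypoxia, 23 were higher (median 0.35), and 4 of them did not overlap, 14.8% of the list against 7.6% of all genes. Among these 4, Slc2a1, the glucose transporter, was at 57.7, 67.9 and 44.4 CPM in WT and 78.2, 74.9 and 109 CPM in 1013/1013, and Vegfa, which encodes a growth factor of blood vessels, was at 33.5, 34.4 and 33.8 CPM against 53.8, 39.5 and 55.2 CPM. Neither list held a call by edgeR or DESeq2, against 0.00617% and 0.382% of all genes. Without both leukocyte-rich libraries the medians were 0.72 and 0.46. They were 0.51 and 0.48 without WT replicate 3, and 0.58 and 0.45 without 1013/1013 replicate 1.

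Cxcr4, Ackr3 and Cxcl12 did not pass the test. Cxcr4, on chromosome 1, was at 12.7, 8.16 and 5.34 CPM in WT and 4.60, 15.4 and 3.86 CPM in 1013/1013, with the highest value in 1013/1013 replicate 2, which was rich in leukocyte transcripts. The counts are summed over the whole gene and do not show the mutated end of the coding sequence, so this level does not check the genotype labels. Ackr3, which encodes the scavenger receptor for the same chemokine, was at 205, 137 and 89.6 CPM in WT and 131, 124 and 134 CPM in 1013/1013. Cxcl12 was at 128, 41.4 and 88.1 CPM against 52.4, 191 and 39.1 CPM. All 3 genes overlapped between groups. Of the 31 genes of the receptor axis and its desensitization, 17 were lower (median −0.05). At an unadjusted edgeR p under 0.05, 2 were lower, 6.45% of the list against 3.38% of all genes. One of the 2 was Grk3, a kinase that phosphorylates activated receptors, which was at 0.666, 0.0550 and 2.35 CPM in WT, 0, 0.911 and 1.65 CPM in +/1013 and 0 in all 1013/1013 libraries, at least 25.5-fold lower there with 3 counts as the limit in each. WT replicate 2 was itself near that limit. The other was Rgs12, a regulator of G-protein signaling, at 11.8, 16.1 and 16.9 CPM in WT and 9.06, 8.50 and 5.72 CPM in 1013/1013.

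Factors that bone stroma supplies to other cells gave 1 call, by DESeq2, which called 0.382% of all genes it tested. Of 17 hematopoietic niche factors tested, 13 were lower, with a median log2 fold change of −0.57, which was −0.80 without both leukocyte-rich libraries. Kitl, which encodes stem cell factor, was at 7.61, 5.94 and 7.74 CPM in WT and 4.11, 5.81 and 3.66 CPM in 1013/1013, just without overlap. Foxc1, a transcription factor of niche cells, went the other way, at 40.4, 37.6 and 22.4 CPM against 87.8, 39.0 and 54.7 CPM. Neither passed the test. Of 20 factors that regulate osteoclasts, 10 were higher and 10 lower (median 0.03). Il12a, described above, was the only DESeq2 call among them, and Il18, a cytokine of the interleukin-1 family, was at 2.54, 1.81 and 2.00 CPM in WT and 5.28, 3.18 and 4.54 CPM in 1013/1013.

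The signaling pathway lists held no edgeR call, against 0.00617% of all genes. Of 46 Wnt pathway genes 28 were lower (median −0.14), with 1 higher and 3 lower at an unadjusted edgeR p under 0.05, together 8.70% of the list against 3.38% of all genes. Of 51 genes of the BMP and TGF-beta pathways 28 were lower (median −0.05). At an unadjusted edgeR p under 0.05, 3 were higher and 1 lower, together 7.84% of the list against 3.38% of all genes. There Bmp3, which encodes an inhibitor of bone formation abundant in osteoblasts, was at 192, 189 and 295 CPM in WT and 104, 168 and 126 CPM in 1013/1013, without overlap. Tgfbi, a matrix protein induced by TGF-beta, was at 230, 167 and 93.7 CPM against 449, 215 and 417 CPM, so that replicate 2 overlapped. Of 32 genes of the IGF and FGF pathways 20 were lower (median −0.10, and −0.47 without both leukocyte-rich libraries). Igfbp3 was the 1 DESeq2 call among the 32, against 0.382% of all genes. At an unadjusted edgeR p under 0.05, 1 of the 32 was higher and 1 lower, together 6.25% against 3.38% of all genes. Igf2r, a receptor that clears insulin-like growth factor 2, was at 39.99, 33.3 and 18.2 CPM against 59.5, 56.1 and 41.8 CPM. Notch genes (9 of 18 higher, median −0.01), Hedgehog and PTH genes (9 of 20, −0.14) and adipogenic genes (11 of 20, 0.07) held 0 DESeq2 calls. They also held 0 genes at an unadjusted edgeR p under 0.05. The shares of all genes were 0.382% and 3.38%. Without both leukocyte-rich libraries the medians of these 3 lists were −0.32, −0.27 and −0.20 in turn. Of 32 matrix proteinases and inhibitors 21 were lower (median −0.15, and −0.32 without both), among them Adamts9 at 8.70, 4.06 and 10.7 CPM in WT and 2.93, 3.65 and 3.97 CPM in 1013/1013. Of 30 integrins and adhesion genes 20 were lower (median −0.11, and −0.44 without both leukocyte-rich libraries). Itga1, which pairs to form a collagen receptor, was at 8.73, 5.66 and 8.66 CPM in WT and 11.8, 15.7 and 14.4 CPM in 1013/1013, without overlap.

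Housekeeping groups differed by small amounts. Genes for cytosolic ribosomal proteins were lower in 70 of 85 cases with a median log2 fold change of −0.18, and without both leukocyte-rich libraries the median was −0.03 with 38 of 85 higher. Nuclear genes for subunits of oxidative phosphorylation were lower in 69 of 79 cases (median −0.29), and the median was −0.10 without both. Mitochondrially encoded mRNAs were higher in 11 of 12 cases (median 0.28), and the median was 0.13 without 1013/1013 replicate 1, with 8 of 12 higher, and 0.44 without both leukocyte-rich libraries. Their share of counts was 0.242%, 0.264% and 0.284% in WT and 0.426%, 0.277% and 0.309% in 1013/1013, which overlapped. Proteasome subunits had a median of −0.03 with 15 of 37 higher, and without both leukocyte-rich libraries the median was 0.12 with 29 of 37 higher. Of 49 genes of S phase and mitosis 28 were higher (median 0.02), and this median ran from −0.54 without 1013/1013 replicate 2 to 0.85 without WT replicate 3. Of 20 D-type cyclins and inhibitors of cyclin-dependent kinases 12 were higher (median 0.13, and 0.0090 without both leukocyte-rich libraries). Immediate-early and heat shock genes were higher in 23 of 31 cases (median 0.25, and 0.01 without 1013/1013 replicate 1 or without WT replicate 3), and interferon-stimulated genes were lower in 22 of 32 (median −0.18, and −0.45 without both leukocyte-rich libraries). None of these lists held a DESeq2 call, against 0.382% of all genes.

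The medians of several lists for other cell types depended on which libraries were fitted. For the 26 leukocyte genes the median log2 fold change was 0.68 and became −1.37 without both leukocyte-rich libraries, and that of the 12 erythroid genes was 1.94 and became −2.88. The 12 endothelial genes had a median of 0.93. It was 0.73 without 1013/1013 replicate 1, 0.71 without 1013/1013 replicate 2 and 0.55 without both leukocyte-rich libraries. The 10 genes of Sca-1-positive stroma had a median of 0.55, which was 0.06 without both and −0.04 without 1013/1013 replicate 1. Pecam1, the defining endothelial marker, was at 0.372, 0.0137 and 0.230 CPM in WT and 1.34, 7.11 and 0 CPM in 1013/1013. The 9 osteoclast genes had a median of −0.93, which was −0.03 without both leukocyte-rich libraries. The 17 genes of mural and muscle cells had a median of −0.38, which was −1.17 without both, with 14 genes lower. The summed levels of each of these 6 lists overlapped between the groups, and their part in the other results was not tested. The sorting markers Itgav, which encodes CD51, and Pdgfra overlapped too, at 23.7 to 55.5 CPM against 44.9 to 57.2 CPM and at 76.6 to 108 CPM against 45.6 to 88.2 CPM. The plot of gene lists places each library.

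**Figure D5:**
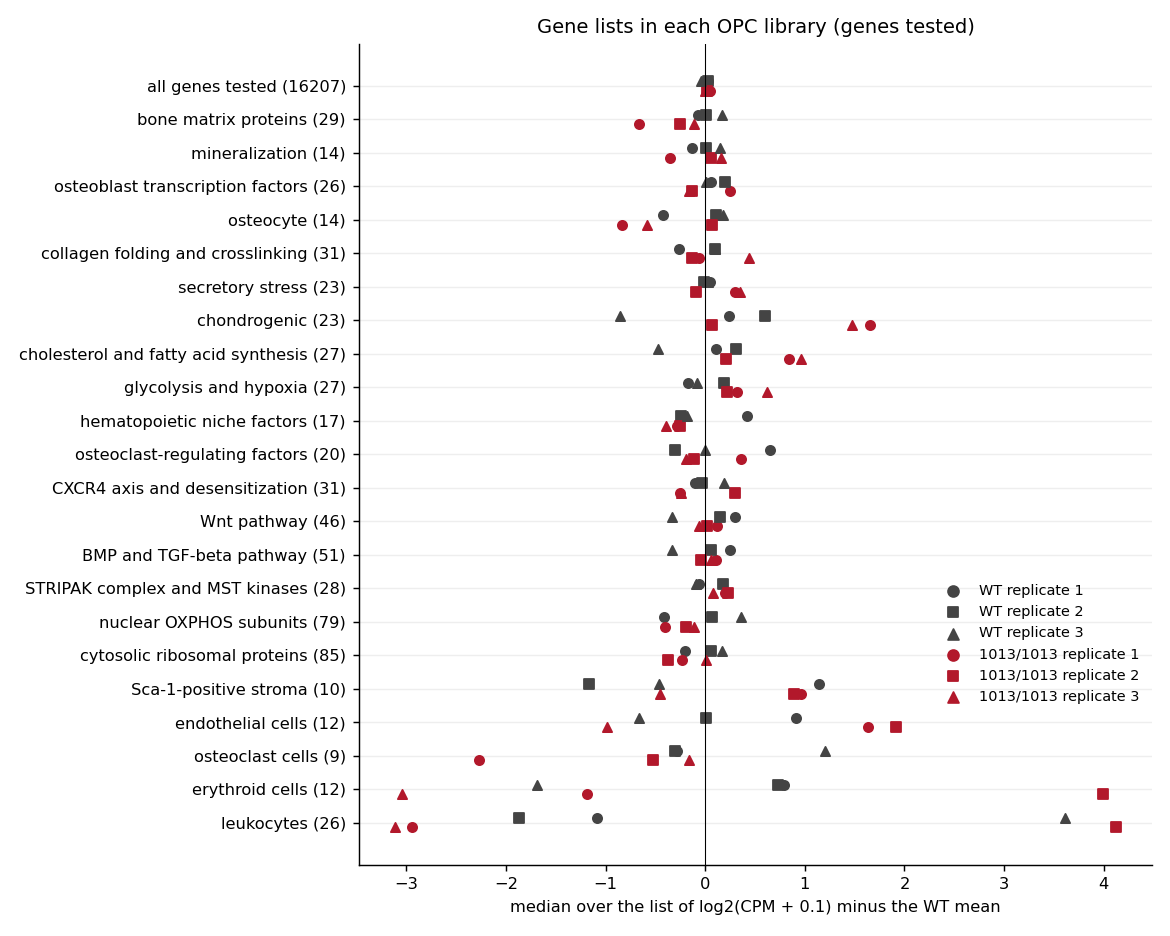
For each gene list (number of genes tested in parentheses), the horizontal axis gives the median over its genes of log2(CPM + 0.1) in 1 library minus the mean of the 3 WT libraries, with WT in grey and 1013/1013 in red; circles, squares and triangles are replicates 1, 2 and 3. WT replicate 3 and 1013/1013 replicate 2 lie at 3.61 and 4.13 for leukocytes, and 1013/1013 replicates 1 and 3 at 1.65 and 1.48 for chondrogenic genes.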

How the data were processed

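RNA of about 3000 sorted cells per pool was amplified with SMART-Seq v4, tagmented with Nextera XT and sequenced. Per the labels, reads were checked with FastQC and aligned with STAR to mm10. The deposited values are raw counts per gene (HTSeq format), made by the authors without normalization, and the footer lines for reads with no feature, ambiguous or not unique were left out. No molecular identifiers were used, so PCR copies are counted. Of 55335 gene identifiers, 55154 matched GENCODE M21 (GRCm38) without their version numbers.

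The 9 OPC libraries were fitted in edgeR 4.0.16 (R 4.3.3; filterByExpr, TMM, quasi-likelihood F-test with legacy = TRUE), and the contrast of 1013/1013 minus WT was tested. For a call, the Benjamini-Hochberg adjusted p had to be below 0.05 and the fold at or above 1.5, the study's thresholds. The study's tool, DESeq2 (1.42.0, Wald test), was the first alternative. Standard errors are the log2 fold change over the root of F. The code was tested on simulated counts. Single library measures were compared by an exact two-sided permutation test.

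Named genes were those called; DESeq2 calls without overlap and with a mean of at least 1 CPM, up to 12 with the largest rises and 12 with the largest falls; the 2 genes of smallest p in each of 35 lists; Cxcr4, Ackr3, Cxcl12, the sorting markers, Stk24 and Stk26; and DESeq2 calls on chromosome 1. Others, such as Irf2bp2, Pcdh18, Sypl, Mmaa, Hars2, Cd200, Sgca, Col17a1 and the further bone, cartilage, lipid and allele-ordered genes, were added after their values were seen. Both the comparison and the lists were chosen with earlier results of these data known. The labels do not say that replicates of a genotype share nothing but genotype, so p-values measure the spread between these pools. Alternatives were the normalization, the filter, the libraries fitted, the quasi-likelihood variant, the replicate block, the fold threshold and leaving out libraries. SSC libraries were not used here.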

Additional observations from a re-analysis of the deposited data

How the results depend on the processing

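The edgeR count of 1 gene was also 1 with DESeq2 size factors, upper-quartile scaling, no filter, a minimum of 10 counts per library, the other quasi-likelihood settings and no fold threshold. It was 0 when only the WT and 1013/1013 libraries were fitted (401 genes at an unadjusted p under 0.05 in edgeR, against 548), and also 0 when any 1 library was left out (410 to 1080 genes at that p). DESeq2's Wald test called 67 genes, and 63 to 215 without 1 library: 166 without WT replicate 1, 110 without WT replicate 2, 81 without WT replicate 3, 63, 215 and 76 without 1013/1013 replicates 1, 2 and 3. Leaving out both leukocyte-rich libraries, chosen after seeing the data, gave 0 calls in edgeR (802 genes at an unadjusted p under 0.05) and 130 in DESeq2. The cause of the gap between the tools was not tested. With 3 pools per genotype, genes at low counts have wide errors.

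Same-numbered WT and 1013/1013 libraries deviated together with r = 0.27, −0.23 and −0.12. The highest r between a WT and a 1013/1013 library, 0.34, was that of the leukocyte-rich libraries. Since the leukocyte transcripts enter these values, they cannot decide whether same-numbered libraries shared a batch. For Col1a1, Ibsp and Sp7, as given above, replicate 1 was lowest in each genotype. With the replicate block the edgeR count was 0, with 658 genes at an unadjusted p under 0.05.

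Of the alternatives for named genes, 44 of 3188 reversed the sign of a fold change, in 12 genes, none of them called. Without both leukocyte-rich libraries, Atp6v0d2 went from −4.12 to 0.49 (edgeR) and 0.48 (DESeq2), Cd74 from 2.73 to −1.59 and −1.59, Ermap from 4.22 to −1.09 and −1.11, Klf1 from 3.02 to −2.35 and −2.39, Cxcl12 from 0.14 to −0.89 and −0.90, and Ptprc from 1.03 to −1.86 and −1.87. With the replicate block, Ermap was −0.34 and Cxcl12 −0.054. Leaving out 1 library at a time, the edgeR log2 fold change ran from −2.43 to 3.57 for Cd74, −1.16 to 5.11 for Ermap, −1.78 to 5.18 for Klf1, −1.05 to 0.25 for Cxcr4, −0.40 to 0.20 for Ackr3, −0.92 to 0.56 for Cxcl12, −0.20 to 1.15 for Ly6a, −4.86 to 4.03 for Ptprc, −0.61 to 0.073 for Ibsp, −0.57 to 0.19 for Chad and −0.93 to 0.13 for Prg4. In DESeq2 the values of opposite sign were −2.44 for Cd74, −1.19 for Ermap, −1.80 for Klf1, 0.17 to 0.27 for Cxcr4 (0.22 between them), 0.21 for Ackr3, −0.92 to −0.18 for Cxcl12, −0.20 for Ly6a, −4.88 for Ptprc, 0.079 for Ibsp, 0.042 to 0.20 for Chad and 0.14 for Prg4. The causes were not tested.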
